A study of Homo sapiens with 12 samples.

Results

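Amino acids cross membranes through carriers of the solute carrier (SLC) gene families, and 6 of these families were followed here in cells kept without cystine, the oxidised dimer of cysteine. The members were all rows of the deposited gene table named SLC1A, SLC6A, SLC7A, SLC36A, SLC38A or SLC43A with a number, without the cystine carrier subunit SLC7A11 and the glutamate and cysteine carrier SLC1A1. The rule used names only and no measured value. It gave 55 genes of 60987 rows: 19 SLC6A, 12 SLC7A, 11 SLC38A, 6 SLC1A, 4 SLC36A and 3 SLC43A genes.

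The samples were cells of HCT116, a line established from a human colorectal carcinoma and labelled wild type. Control cells stayed in full DMEM for 24 h or 48 h, and deprived cells were washed and given DMEM with 0 mM cystine for the same times. All media held fetal bovine serum and antibiotics, and each of the 4 groups had 3 samples. A wash and fresh medium are described for the deprived cells and not for the controls, so the effects of this step and of cystine withdrawal cannot be told apart. The labels do not say whether the 3 samples of a group were separate cultures, so the p-values reflect how these samples spread, and that spread may be technical.

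Total estimated counts per sample lay between 19146108 and 24179533, and the 55 members together held 0.326% to 0.673% of the counts of named genes. Of 10 epithelial marker genes, 8 or 9 per group reached 1 CPM, a count scaled by library size, and their summed level was 4099 to 4554 CPM in controls and 5407 to 5557 CPM in deprived cells at 24 h, and 4545 to 5030 and 5139 to 5733 CPM at 48 h, without overlap at either time. LGALS4 stayed below 1 CPM in every group and VIL1 in deprived cells at 24 h. Of the fibroblast, leukocyte, endothelial and neural markers, only COL1A1, CD68, VWF and SYP reached 1 CPM in any group, and the leukocyte markers PTPRC and CD3E were at 0 throughout. The 5 fibroblast markers, of which COL1A1 alone reached 1 CPM, summed to levels of 32.3 to 34.2 CPM in controls and 16.3 to 20.7 CPM in deprived cells at 24 h, and 44.6 to 49.3 and 20.3 to 22.6 CPM at 48 h. DCN was at 0 in deprived cells. The 5 leukocyte markers, of which CD68 alone reached 1 CPM, summed to levels of 4.66 to 5.23 and 11.3 to 12.2 CPM at 24 h, and 10.6 to 11.2 and 22.9 to 27.3 CPM at 48 h. Their part in the results below was not tested. In bulk RNA, fewer cells with a transcript and less of it per cell cannot be told apart.

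These carriers differ in what they move and in which direction. Some use the sodium gradient to concentrate small neutral amino acids in the cell, others exchange an amino acid inside for one outside, and a few sit in the lysosome. Several SLC7A proteins are light chains that reach the membrane only when bound to a heavy chain, SLC3A2 or SLC3A1. When amino acids run short or the endoplasmic reticulum is stressed, the transcription factor ATF4 is made and binds C/EBP-ATF response elements, and carrier genes are among its known targets.

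Of the 55 members, 30 had enough counts to be tested and 25 did not. Among the 25, 7 had a count of 0 in all 12 samples (SLC6A2, SLC6A5, SLC6A7, SLC6A15, SLC7A13, SLC38A4 and SLC38A11). A count of 0 allows a level of up to 3 counts, which is 0.124 to 0.157 CPM in these libraries and covers counting error only. The other 18 included SLC1A6, SLC1A7, SLC6A3, SLC6A14, SLC6A19, SLC7A3, SLC7A7, SLC7A10, SLC36A2 and SLC38A8. None of the 18 passed 10 counts in any sample, the most being 10 for SLC7A7. Many of these are known from brain, kidney or intestine, such as the dopamine carrier SLC6A3 and the renal and intestinal neutral amino acid carrier SLC6A19. Of the 30 tested, 27 reached 0.45 CPM, the level the filter asks for, in all 12 samples. SLC6A4 and SLC7A9 reached it in some samples of several groups, and SLC1A2 only in control groups, so SLC1A2 entered the test through the groups in which it was high.

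After 24 h without cystine, 12 of the 30 tested members rose and 9 fell (edgeR's quasi-likelihood test, adjusted p under 0.05 over 16994 genes). That is 70% of the tested members. Of all genes tested, 55.6% were called in the same comparison, 28.8% higher and 26.9% lower. With a filter at a mean of 5 CPM, 17 of 24 members and 7947 of 11761 genes were called at 24 h. On 2 other scalings, upper-quartile and library totals, the split at 24 h was 10 higher and 12 lower. Over all genes it moved the same way, from 4886 higher and 4565 lower to 4160 and 5300 on upper-quartile scaling and 4091 and 5318 on library totals. By at least 2-fold, 7 members rose and 5 fell, where 4.84% of all genes rose and 6.26% fell that far. The control and deprived samples did not overlap for 21 members, and for 62.8% of all genes. After 48 h, 16 members rose and 9 fell, with 68.3% of all genes called, 33.5% higher and 34.9% lower. With the filter at 5 CPM, 19 of 24 members and 9209 of 11761 genes were called at 48 h. By at least 2-fold, 10 members rose and 7 fell at 48 h, against 8.59% and 15.3% of all genes. The samples did not overlap at 48 h for 26 members, and for 70% of all genes. These counts include SLC1A2, which entered the test through its control groups. It counts as lower, at least 2-fold lower and without overlap at both times. The median log2 fold change over the 30 members was 0.07 at 24 h and 0.13 at 48 h, and over all genes it was -0.01 and -0.02. Both medians were close to 0, and single members lay far from them on both sides.

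The same 19 members, SLC1A2 included, were called at both times, none of them in opposite directions, and 47% of all genes were called at both. The comparisons at 24 h and 48 h used different control and deprived samples. SLC6A8, SLC6A20, SLC7A6, SLC38A7, SLC38A9 and SLC38A10 were called at 48 h and not at 24 h, and SLC36A1 and SLC36A4 at 24 h and not at 48 h. The serotonin carrier SLC6A4 and the light chain SLC7A9 were called in no comparison, with levels of at most 0.685 and 0.642 CPM in any sample.

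**Figure D1:**
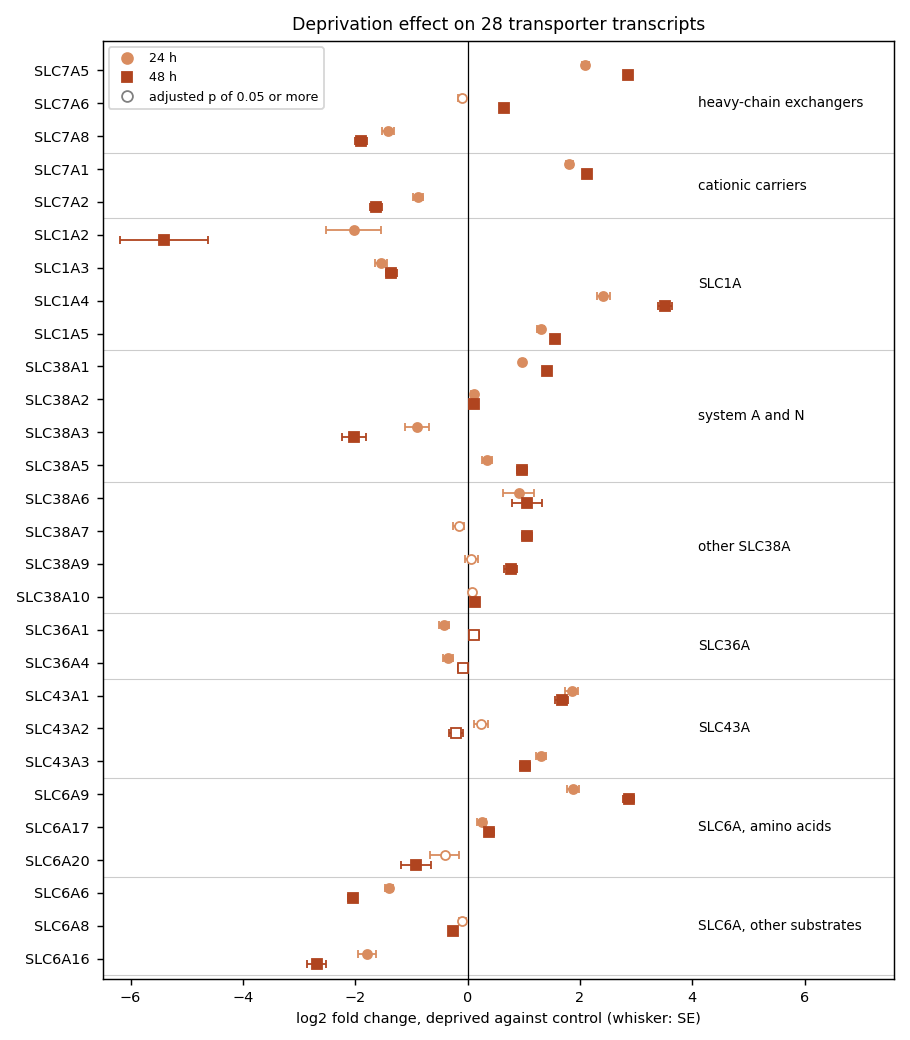
Log2 fold change of deprived against control cells (x axis) for the 28 members that are named with values, ordered by role, at 24 h (circles) and 48 h (squares), with the standard error as whisker and open symbols where the adjusted p was 0.05 or more. SLC1A4 lies furthest to the right at both times, at 2.41 and 3.51, while the position of SLC1A2, which entered the test through its control groups and had 1 count in deprived cells at 48 h, is a fitted value and gives no size of the change.

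The promoter sequences of the members were searched for an element known from genes of the amino acid response. RefSeq promoter windows, which run from 250 bases before to 50 after a gene's start (GRCh38.p14), were at hand for 42 of the 55 members. They were searched on both strands for TGATGNAA, the core of the C/EBP-ATF response element, which reads TTNCATCA on the other strand. The core was found for 5 members, 11.9% of those matched, and for 4.46% of all 27305 genes in the table. With the sense strand alone 4 members held it. The 5 stretches are shown 5′ to 3′ on the gene's own strand, with the match in capitals.
SLC1A3: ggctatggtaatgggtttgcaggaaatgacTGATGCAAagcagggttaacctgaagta
SLC1A4: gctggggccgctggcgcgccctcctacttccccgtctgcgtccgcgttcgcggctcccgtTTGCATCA
SLC1A5: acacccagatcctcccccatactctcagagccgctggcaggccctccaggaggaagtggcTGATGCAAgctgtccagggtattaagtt
SLC38A1: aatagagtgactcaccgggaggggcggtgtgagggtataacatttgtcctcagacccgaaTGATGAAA
SLC7A1: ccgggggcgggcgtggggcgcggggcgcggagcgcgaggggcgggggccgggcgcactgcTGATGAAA

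The stretch of SLC7A1 (chr13:29595674-29595741, minus strand) spans the annotated start of the gene, and its match begins 7 bases after that start, in the 5′ UTR. The stretch of SLC1A4 (chr2:64989332-64989399, plus strand) lies inside the gene and outside its annotated exons, and its match begins 7 bases before an alternative start and ends on it, 922 bases downstream of the gene's first annotated start. The stretch of SLC1A5 (chr19:46784884-46784971, minus strand) lies inside the gene, and its match begins 97 bases before an alternative start that is 3780 bases downstream of the first. Its last 22 bases overlap an annotated UTR. The stretch of SLC38A1 (chr12:46266513-46266580, minus strand) lies inside the gene and outside annotated exons, and its match begins 4 bases before an alternative RefSeq start and runs across it. The stretch of SLC1A3 (chr5:36596338-36596395, plus strand) lies upstream of the gene as GENCODE 29 draws it, and its match begins 220 bases before a RefSeq start. Which of these starts the cells used was not tested. SLC1A4, SLC1A5, SLC38A1 and SLC7A1 rose at both times, and SLC1A3 fell at both times. SLC1A2, SLC6A6, SLC7A2 and SLC38A3, which fell at both times, and SLC43A3, which rose at both, had no window and were not searched. SLC7A5, SLC6A9, SLC6A17, SLC38A2, SLC38A5, SLC38A6 and SLC43A1 also rose at both times, and these letters are not in their windows. Nor are they in the windows of SLC6A16 and SLC7A8, which fell at both times. A match is a description of the sequence and not evidence of binding. ATF4 itself rose by 0.42 ± 0.065 (SE) on the log2 scale at 24 h and by 0.68 ± 0.065 at 48 h.

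The exchangers that pair with a heavy chain held the largest absolute increase. SLC7A5 (chr16:87830023-87869488, minus strand), which swaps large neutral amino acids such as leucine for amino acids inside the cell, was at 426, 379 and 421 CPM in the control samples at 24 h. In the deprived samples it was at 1667, 1790.1 and 1797 CPM. By 48 h the controls were at 297, 335 and 320 CPM and the deprived samples at 2146, 2323 and 2446 CPM. Every deprived sample was thus far above every control, and no groups overlapped. The increase was 4.29-fold at 24 h and 7.27-fold at 48 h, or 2.10 ± 0.06 and 2.86 ± 0.06 on the log2 scale (SE), with adjusted p = 3.04e-15 and 1.27e-17 by edgeR.

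SLC7A8, a second exchanger of neutral amino acids with the same heavy chain, moved the other way. Its levels were 18.3, 14.8 and 17.6 CPM in controls and 6.14, 6.39 and 6.55 CPM in deprived cells at 24 h. After 48 h they were 16.3, 16.2 and 15.4 CPM in controls and 3.96, 4.77 and 4.14 CPM in deprived cells. The groups did not overlap, and the log2 fold changes were -1.41 ± 0.11 and -1.90 ± 0.11 (SE; adjusted p = 1.92e-09 and 1.77e-11, edgeR). Per kilobase of gene length, SLC7A5 stood at 22.5 ± 1.11 times the level of SLC7A8 in control cells at 24 h (SD, n = 3) and at 256 ± 4.01 times in deprived cells. The ratio at 48 h was 18.5 ± 1.36 in controls and 502 ± 48.5 in deprived cells.

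SLC7A6, which exports cationic amino acids in exchange for neutral ones, lay at 40.0 ± 1.39 CPM in controls and 37.2 ± 3.11 CPM in deprived cells at 24 h (SD, n = 3), and these groups overlapped. Its log2 fold change was -0.11 ± 0.07 (SE), adjusted p = 0.188, at 24 h and 0.65 ± 0.07, adjusted p = 5.53e-08, at 48 h (edgeR). At 48 h the control level was lower, 28.9 ± 0.832 CPM, and the deprived level higher, 45.3 ± 1.64 CPM. On upper-quartile scaling the 24 h value was -0.18 with an adjusted p of 0.0333. SLC7A6OS, a gene whose exons overlap SLC7A6 on the other strand, had a log2 fold change of 0.27 and 0.53. The sources used here do not give whether counting used strand, and the reads of such a pair cannot be told apart.

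The heavy chain SLC3A2, which is no member, was compared with its light chains per kilobase because each heterodimer holds 1 of each. SLC3A2 was at 74.1 ± 4.49 CPM per kb in controls and 344 ± 13.9 CPM per kb in deprived cells at 24 h (SD, n = 3), and at 57.5 ± 7.46 and 481 ± 37.7 CPM per kb at 48 h. Its 6 light chains (SLC7A5, SLC7A6, SLC7A7, SLC7A8, SLC7A10 and SLC7A11) summed to 107 ± 6.26 and 449 ± 15.7 CPM per kb at 24 h, and to 82.0 ± 3.72 and 593 ± 22.1 CPM per kb at 48 h. The ratio of SLC7A5 to SLC3A2 lay at 1.21 ± 0.03 in controls and 1.12 ± 0.00454 in deprived cells at 24 h, and at 1.22 ± 0.09 and 1.05 ± 0.03 at 48 h. Both transcripts thus moved by similar factors, with ratios that were lower in every deprived sample than in any control of the same time. SLC7A5 made up 84.1 ± 1.15% of the light-chain sum in controls and 85.6 ± 0.701% in deprived cells at 24 h, while SLC7A11 went from 5.98 ± 0.928% to 12.7 ± 0.645%. The 48 h share of SLC7A5 was 84.9 ± 1.2% and 85.2 ± 2.57%, and that of SLC7A11 was 4.73 ± 0.624% and 13.4 ± 2.55%. The other heavy chain, SLC3A1, which carries SLC7A9 in kidney and intestine, had 1 to 4 counts over the 3 samples of each group.

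**Figure D2:**
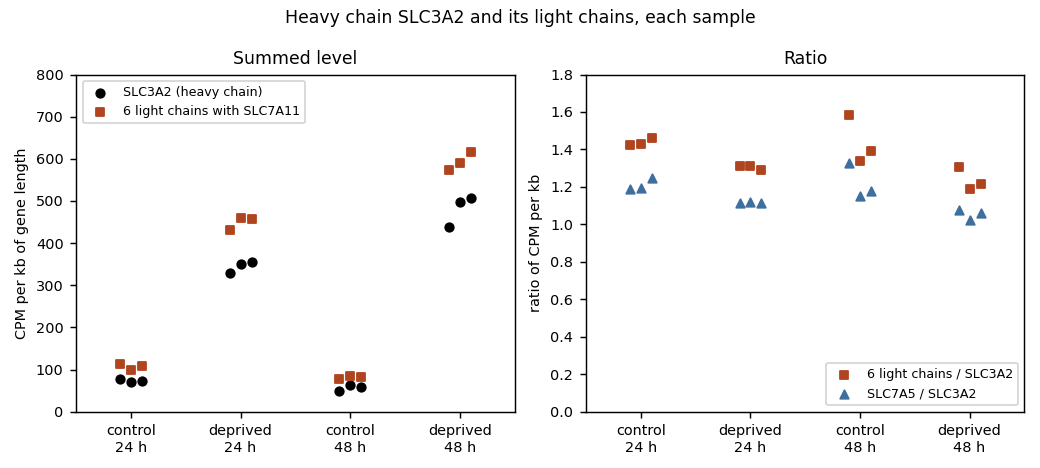
Left, CPM per kilobase of the heavy chain SLC3A2 (circles) and of the sum of its 6 light chains (squares) in each of the 12 samples. Right, the ratio of that sum to SLC3A2 (squares) and of SLC7A5 to SLC3A2 (triangles), which stay between 1.02 and 1.58 in all samples while both levels differ several-fold between media.

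The carriers of arginine, lysine and ornithine split in the same way. SLC7A1 (chr13:29509410-29595688, minus strand), the widely expressed cationic carrier whose promoter stretch is printed above, was at 153, 132 and 142 CPM in controls and 505, 488 and 504 CPM in deprived cells at 24 h. After 48 h it was at 145, 156 and 136 CPM in controls and 603, 636 and 657 CPM in deprived cells. Controls and deprived samples lay apart, and the increase was 3.51-fold at 24 h (adjusted p = 1.82e-14) and 4.34-fold at 48 h (adjusted p = 4.42e-16, edgeR). SLC7A2, the second cationic carrier, fell from 28.2 ± 2.59 to 15.2 ± 0.955 CPM at 24 h (SD, n = 3) and from 25.4 ± 2.66 to 8.22 ± 0.531 CPM at 48 h. Its log2 fold changes were -0.89 ± 0.09 and -1.63 ± 0.10 (SE; adjusted p = 1.65e-07 and 3.21e-11, edgeR), again with no overlap. The ratio of SLC7A1 to SLC7A2 per kilobase was 5.22 ± 0.629 and 33.9 ± 2.64 at 24 h, and 5.95 ± 0.963 and 79.3 ± 3.75 at 48 h, in controls and deprived cells.

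In the SLC1A family the neutral exchangers SLC1A4 and SLC1A5 rose and the glutamate carrier SLC1A3 fell. SLC1A4 (chr2:64988477-65023865, plus strand), an exchanger of alanine, serine, cysteine and threonine, was at 9.21, 7.08 and 5.79 CPM in controls and 40.0, 37.9 and 40.4 CPM in deprived cells at 24 h. At 48 h it was at 4.6, 5.43 and 4.13 CPM in controls and 51.5, 51.1 and 59.3 CPM in deprived cells. With no overlap, this was the largest increase among the tested members at both times, 5.33-fold and 11.4-fold (adjusted p = 4.02e-12 and 7.82e-15, edgeR).

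SLC1A5 (chr19:46774883-46788594, minus strand), the exchanger best known for glutamine, was at 192, 187 and 200 CPM in controls and 468, 475 and 485 CPM in deprived cells at 24 h. The 48 h values were 160, 189 and 184 CPM in controls and 486, 526 and 551 CPM in deprived cells. No control reached a deprived sample, and the log2 fold changes were 1.30 ± 0.06 and 1.55 ± 0.06 (SE; adjusted p = 2.32e-12 and 4.86e-14, edgeR). Per kilobase SLC1A5 exceeded SLC1A4 by a factor of 43.1 ± 10.9 in controls and 19.1 ± 0.68 in deprived cells at 24 h (SD, n = 3). The factor at 48 h was 60.2 ± 8.86 in controls and 15.3 ± 0.859 in deprived cells, so SLC1A5 remained the more abundant of the pair.

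SLC1A3, a sodium-driven glutamate and aspartate carrier, fell from 21.6 ± 2.63 to 7.42 ± 0.637 CPM at 24 h and from 23.9 ± 1.64 to 9.35 ± 0.547 CPM at 48 h (SD, n = 3). Its log2 fold changes were -1.54 ± 0.11 and -1.36 ± 0.10 (SE; adjusted p = 4.64e-10 and 5.55e-10, edgeR), without overlap of groups. SLC1A2, the main glutamate carrier of astrocytes, was near the limit of detection, and since it passed the filter through its control groups alone its values are a description. Its counts summed to 64 over the 3 controls and 17 over the 3 deprived samples at 24 h, a ratio of 4.2 with a 95% counting interval of 2.43 to 7.64. At 48 h the sums were 59 and 1, a ratio of 58.2 with a counting interval of 10.0 to 2337. The intervals cover counting error only, and the single count sets how wide the second one is. SLC1A1, the glutamate and cysteine carrier left out by the rule, had log2 fold changes of -0.80 and -0.84.

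The SLC38A carriers of system A, which use sodium to load the cell with alanine, serine, glutamine and similar amino acids, held the most abundant member per kilobase, SLC38A2, in all groups except deprived cells at 48 h. SLC38A1 (chr12:46183063-46270017, minus strand) was at 322, 310 and 290.3 CPM in controls and 608, 619 and 591 CPM in deprived cells at 24 h. By 48 h it stood at 302, 289 and 288 CPM in controls and 805, 772 and 755 CPM in deprived cells. Again the groups lay apart, and it rose 1.97-fold and 2.65-fold (adjusted p = 6.49e-12 and 9.47e-15, edgeR).

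SLC38A2 (chr12:46358189-46372867, minus strand), the amino-acid-regulated carrier of the same system, was at 1831, 1794 and 1706 CPM in controls and 1917, 1884 and 1956 CPM in deprived cells at 24 h. By 48 h it stood at 1687, 1631 and 1594 CPM in controls and 1809, 1745 and 1782 CPM in deprived cells. The groups did not overlap at either time, but the distance between them was small, 0.11 ± 0.04 at 24 h and 0.12 ± 0.04 at 48 h on the log2 scale (SE; adjusted p = 0.0396 and 0.0223, edgeR). On upper-quartile scaling the values were 0.04 and 0.06 with adjusted p = 0.456 and 0.225, and on library totals 0.04 and 0.1 with adjusted p = 0.503 and 0.0592. The 24 h call was also lost in 5 of the 12 fits that left out a sample (the second or the third control, or any deprived sample), with adjusted p from 0.0502 to 0.163. The 48 h call was lost without the third control (adjusted p = 0.0731). Per kilobase, SLC38A2 stood at 3.13 ± 0.05 times SLC38A1 in controls and 1.72 ± 0.07 times in deprived cells at 24 h (SD, n = 3), and at 3.03 ± 0.03 and 1.24 ± 0.03 times at 48 h. Of the 2 genes, which lie near each other on chromosome 12, SLC38A1 thus lay nearer to the level of SLC38A2 in deprived cells than in controls, and nearest at 48 h.

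The system N carriers, which move glutamine, histidine and asparagine in either direction, differed from each other. SLC38A5 lay at 32.4 ± 3.92 CPM in controls and 41.2 ± 0.777 CPM in deprived cells at 24 h, and at 28.7 ± 0.933 and 56.0 ± 7.1 CPM at 48 h (SD, n = 3). It rose by 0.35 ± 0.09 and 0.96 ± 0.09 on the log2 scale (SE; adjusted p = 0.00285 and 1.08e-08, edgeR). SLC38A3, a low-abundance transcript here and a liver, kidney and brain carrier in the body, fell from 3.65 ± 0.246 to 1.93 ± 0.44 CPM and from 5.25 ± 0.31 to 1.28 ± 0.312 CPM. Its log2 fold changes were -0.90 ± 0.21 and -2.03 ± 0.22 (SE; adjusted p = 0.00131 and 9.99e-08, edgeR).

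Of the other SLC38A carriers, 4 of 6 were tested. At 24 h 1 of them rose and at 48 h all 4, where 28.8% and 33.5% of all genes rose, and the 48 h call of SLC38A10 was lost in several of the alternatives. SLC38A7, which exports glutamine and asparagine from lysosomes, was at 14.1, 14.5 and 13.1 CPM in controls and 11.6, 13.3 and 12.4 CPM in deprived cells at 24 h. After 48 h it was at 9.88, 8.72 and 8.99 CPM in controls and 19.7, 17.5 and 20.2 CPM in deprived cells. The groups overlapped at 24 h and lay apart at 48 h, with log2 fold changes of -0.16 ± 0.09 (adjusted p = 0.154) and 1.05 ± 0.09 (SE; adjusted p = 6.65e-09, edgeR). On upper-quartile scaling the 24 h value was -0.23 with an adjusted p of 0.0447.

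SLC38A9, a lysosomal arginine sensor upstream of mTORC1, lay at 15.8 ± 2.16 and 16.5 ± 0.433 CPM at 24 h and at 12.6 ± 0.709 and 21.4 ± 3.16 CPM at 48 h, in controls and deprived cells (SD, n = 3). Its log2 fold change was 0.07 ± 0.11 (adjusted p = 0.635) and 0.77 ± 0.11 (SE; adjusted p = 4.54e-06, edgeR). SLC38A10 had group means of 152 to 168 CPM, with log2 fold changes of 0.07 ± 0.05 and 0.14 ± 0.05 (SE). The second was called (adjusted p = 0.0218, edgeR), but on upper-quartile scaling it was 0.08 with an adjusted p of 0.155, and with the filter of 5 CPM it was 0.10 with an adjusted p of 0.0584. It was also lost without the second control or the third deprived sample (adjusted p = 0.0679 and 0.0892). SLC38A6, at 1.48 to 3.11 CPM as group means, rose by 0.91 ± 0.27 and 1.06 ± 0.27 (SE). Its antisense neighbour TRMT5 averaged 32.1 CPM, against 2.24 CPM for SLC38A6, and rose by 0.34 and 0.32, so the part of TRMT5 reads in these counts cannot be told apart.

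Both tested SLC36A carriers fell at 24 h, where 26.9% of all genes fell, and neither was called at 48 h. SLC36A1, which exports small neutral amino acids from lysosomes, was at 16.5 ± 0.928 CPM in controls and 12.3 ± 0.781 CPM in deprived cells at 24 h (SD, n = 3). At 48 h both were close, 12.7 ± 0.637 and 13.8 ± 0.923 CPM. The log2 fold changes were -0.43 ± 0.09 (adjusted p = 0.000488) and 0.12 ± 0.09 (SE; adjusted p = 0.241, edgeR). SLC36A4 went from 28.5 ± 0.747 to 22.4 ± 0.698 CPM at 24 h (adjusted p = 0.0019, edgeR) and lay at 32.0 ± 3.21 and 30.1 ± 3.18 CPM at 48 h, where the groups overlapped (adjusted p = 0.362). The difference between its effects at both times was 0.26 and not called.

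The SLC43A carriers work by facilitated diffusion. SLC43A1, a carrier of large neutral amino acids, was at 3.64, 3.69 and 3.64 CPM in controls and 13.1, 14.2 and 12.3 CPM in deprived cells at 24 h. By 48 h it stood at 3.79, 4.43 and 4.13 CPM in controls and 12.5, 12.5 and 14.5 CPM in deprived cells. All deprived samples lay above all controls, and the increase was 3.61-fold at 24 h and 3.2-fold at 48 h (adjusted p = 2.17e-10 and 1.85e-10, edgeR). SLC43A3, which belongs to the family by sequence and carries purine nucleobases, went from 13.8 ± 0.595 to 33.9 ± 1.55 CPM at 24 h (SD, n = 3) and from 12 ± 1.61 to 24.4 ± 1.67 CPM at 48 h. It rose 2.46-fold and 2.04-fold (adjusted p = 4.92e-10 and 7.14e-09, edgeR). SLC43A2 was not called, with log2 fold changes of 0.24 ± 0.12 and -0.21 ± 0.13 (SE; adjusted p = 0.107 and 0.157). Without the first deprived sample its 24 h value was 0.34 with an adjusted p of 0.0297.

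Among the 9 SLC6A carriers of amino acids, 3 were tested. SLC6A9 (chr1:43991500-44031467, minus strand), a sodium- and chloride-driven glycine carrier, was at 9.36, 7.18 and 7.33 CPM in controls and 27.2, 31.5 and 29.3 CPM in deprived cells at 24 h. After 48 h it was at 7.53, 6.94 and 7.70 CPM in controls and 50.1, 53.7 and 58.3 CPM in deprived cells. The lowest deprived sample lay above the highest control, and the increase was 3.68-fold at 24 h and 7.30-fold at 48 h (adjusted p = 1.48e-11 and 5.29e-15, edgeR). CCDC24, whose exons overlap SLC6A9 on the other strand, had log2 fold changes of -0.21 and -0.90, opposite in sign to SLC6A9.

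SLC6A17, a vesicular carrier of neutral amino acids in neurons, rose from 24.9 ± 0.719 to 29.7 ± 2.49 CPM and from 28.7 ± 2.32 to 37.6 ± 2.63 CPM (SD, n = 3), with log2 fold changes of 0.25 ± 0.08 and 0.39 ± 0.08 (SE; adjusted p = 0.0121 and 0.000207, edgeR). Its 24 h call was lost on upper-quartile scaling (0.18, adjusted p = 0.0554), on library totals (0.18, adjusted p = 0.056) and without the second deprived sample (0.19, adjusted p = 0.0834). SLC6A20, a carrier of proline and other imino acids, lay at 2.61 ± 0.804 and 1.98 ± 0.266 CPM at 24 h, not called (adjusted p = 0.197), and fell from 2.40 ± 0.548 to 1.27 ± 0.06 CPM at 48 h (adjusted p = 0.00549, edgeR).

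The SLC6A members with other substrates moved down or little. SLC6A6 (chr3:14402576-14489349, plus strand), the carrier of taurine, a sulfonic acid made from cysteine, was at 129.8, 129.9 and 138 CPM in controls and 45.3, 52.3 and 53.3 CPM in deprived cells at 24 h. By 48 h it stood at 177, 188 and 164 CPM in controls and 38.7, 44.5 and 44.7 CPM in deprived cells. The groups did not overlap, and the log2 fold changes were -1.40 ± 0.07 and -2.05 ± 0.07 (SE; adjusted p = 7.66e-12 and 9.33e-15, edgeR).

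SLC6A16 (chr19:49289638-49325225, minus strand), an orphan of the family with no established substrate, was at 33.5, 27.7 and 24.5 CPM in controls and 9.30, 8.64 and 6.93 CPM in deprived cells at 24 h. At 48 h it was at 35.6, 24.1 and 28.6 CPM in controls and 4.84, 5.42 and 3.5 CPM in deprived cells. The controls spread widely but did not meet the deprived samples, and the log2 fold changes were -1.79 ± 0.16 and -2.68 ± 0.17 (SE; adjusted p = 1.45e-08 and 4.71e-11, edgeR). SLC6A8, the creatine carrier, was at 101 ± 7.12 and 94.4 ± 4.95 CPM at 24 h, with groups that overlapped (adjusted p = 0.251). At 48 h it fell from 118 ± 0.933 to 98 ± 8.64 CPM (SD, n = 3), a log2 fold change of -0.26 ± 0.07 (SE; adjusted p = 0.00145, edgeR). On upper-quartile scaling the 24 h value of SLC6A8 was -0.16 with an adjusted p of 0.036.

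**Figure D3:**
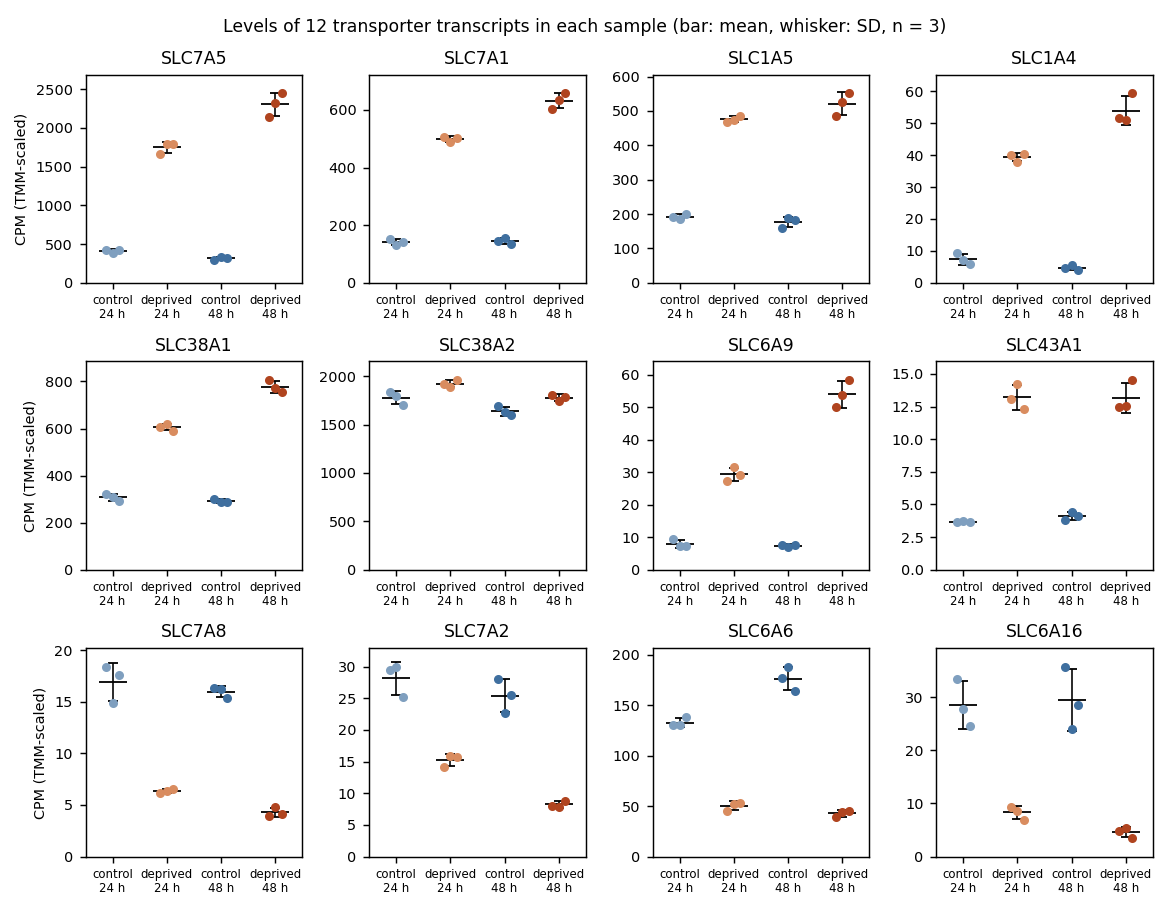
Level in each sample, in TMM-scaled CPM (y axis from 0, scaled to each panel), of 12 members in the 4 groups, with the mean as bar and the SD as whisker. SLC38A2 sits between 1594 and 1956 CPM in all 12 samples, the other members of the upper 2 rows are higher in every deprived sample, and the 4 members of the lower row are lower in every deprived sample.

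Because a few members carry most of the signal, the make-up of the families was compared per kilobase. The 55 members summed to 829 ± 22.8 CPM per kb in controls and 1421 ± 22.8 CPM per kb in deprived cells at 24 h (SD, n = 3), and to 774 ± 11.1 and 1632 ± 45 CPM per kb at 48 h. Every deprived sample exceeded every control, the lowest deprived sample being at 1396 and the highest control at 856 CPM per kb. Without SLC38A2 the sums were 459 ± 15.5 and 1021 ± 21.5 CPM per kb at 24 h, and 433 ± 5.75 and 1261 ± 47.6 CPM per kb at 48 h. SLC38A2 made up 44.7 ± 1.08% of the sum in controls and 28.2 ± 0.574% in deprived cells at 24 h, and 44.1 ± 0.779% and 22.7 ± 0.866% at 48 h. SLC7A5 went from 10.8 ± 0.582% to 27.0 ± 0.725% at 24 h and from 9.0 ± 0.568% to 31.0 ± 1.21% at 48 h.

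By level per kilobase, the order in controls at both times was SLC38A2, SLC38A1, SLC7A5, SLC1A5 and SLC38A10. SLC7A5 and SLC1A5 lay at 89.7 ± 5.66 and 66.9 ± 2.28 CPM per kb at 24 h (SD, n = 3), and at 69.6 ± 4.11 and 61.6 ± 5.29 at 48 h, where their distance was about that of their spread. In deprived cells at 24 h SLC38A2 and SLC7A5 lay next to each other, at 400 ± 7.6 and 384 ± 16.1 CPM per kb, a distance no larger than their spread. At 48 h SLC7A5 came first with 506 ± 33.1 CPM per kb, SLC38A2 followed with 371 ± 6.72, then SLC38A1 with 299 ± 9.79 and SLC1A5 with 181 ± 11.3. SLC7A1 moved in the order from rank 8 in controls to rank 5 in deprived cells at both times, and SLC6A6 moved from rank 7 to 12 at 24 h and from rank 7 to 14 at 48 h. The SLC6A carriers of other substrates together made up 6.75 ± 0.241% of the sum in controls and 2.45 ± 0.07% in deprived cells at 24 h, and 8.68 ± 0.216% and 2.04 ± 0.08% at 48 h, values that were not tested.

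**Figure D4:**
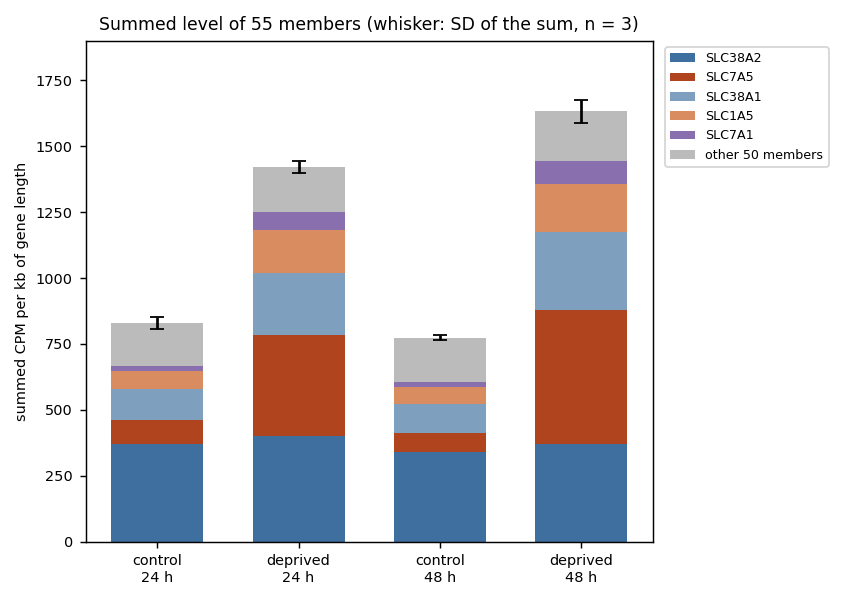
Summed level of the 55 members per group in CPM per kilobase of gene length (bars from 0, mean of 3 samples), split into the 5 members with the highest levels in deprived cells and the other 50, with the SD of the sum as whisker. The SLC38A2 part has almost the same height in each group, and the SLC7A5 part grows from 69.6 to 506 CPM per kb between control and deprived cells at 48 h.

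The effect at 48 h was set against that at 24 h by the interaction contrast of the same fit. It was called for 17 of the 30 tested members, 11 with a higher and 6 with a lower value at 48 h, where 35.6% of all genes were called, 16.4% higher and 19.2% lower. In 14 of the 17, SLC1A2 included, the effect had the same sign at both times and lay further from 0 at 48 h, and in none closer to 0. How many of all genes did so was not counted. SLC38A9 is among the 14, and its 24 h effect of 0.07 was not called (adjusted p = 0.635, edgeR). That effect was below 0 on library totals, on upper-quartile scaling and without the third control at 24 h, so its sign is not established. Over all genes, deprivation was called for 55.6% at 24 h and 68.3% at 48 h. SLC36A1, SLC38A7 and SLC7A6 had fitted effects of different sign at the 2 times, but no change of sign is established. In this fit SLC36A1 was not called at 48 h, and SLC38A7 and SLC7A6 were not called at 24 h. The interaction was 1.1 ± 0.18 for SLC1A4, 0.99 ± 0.14 for SLC6A9 and 0.76 ± 0.09 for SLC7A5 on the log2 scale (SE; adjusted p = 8.53e-05, 2.49e-05 and 1.19e-06, edgeR). For SLC43A1, SLC43A3 and SLC1A3 it was -0.17, -0.27 and 0.18 and not called.

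By definition, the interaction also includes the change of control cells between the times. Among members, 8 differed between control cells at 48 h and 24 h, 2 higher and 6 lower, with 23% of all genes called, 12.7% higher and 10.4% lower. Of the 17 members with a called interaction, 7 were among these 8: SLC1A4, SLC6A6, SLC7A5, SLC7A6, SLC36A1, SLC38A7 and SLC38A9. The same control samples enter both contrasts, so shared calls are partly built in and lend no separate support. How many of all genes had both the interaction and the control call was not counted. The call of SLC38A9 in control cells was lost in 9 of the 12 fits that left out a sample. SLC38A7 fell by 0.59 ± 0.10 in control cells and rose by 0.62 ± 0.09 in deprived cells between 24 h and 48 h on the log2 scale (SE; adjusted p = 0.000214 and 1.82e-05, edgeR). SLC7A6 fell by 0.47 ± 0.07 and rose by 0.29 ± 0.07, and SLC1A4 fell by 0.65 ± 0.15 and rose by 0.45 ± 0.10. SLC6A6 moved in the opposite sense, up by 0.41 ± 0.07 in control cells and down by 0.24 ± 0.07 in deprived cells. The latter call was lost without the second or the third deprived sample at 24 h or the first at 48 h, with adjusted p from 0.063 to 0.0802.

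Deprived cells at 48 h differed from deprived cells at 24 h in 20 members, 12 higher and 8 lower, with 42.5% of all genes called, 20.7% higher and 21.8% lower. The 8 include SLC1A2, which entered the test through its control groups, and SLC38A3, whose groups overlapped (adjusted p = 0.0488, edgeR). The SLC38A3 call was lost in 10 of the 12 fits that left out a sample. SLC6A9 rose by 0.88 ± 0.08 and SLC7A1 by 0.34 ± 0.06, while SLC7A2 fell by 0.89 ± 0.10, SLC43A2 by 0.79 ± 0.13 and SLC43A3 by 0.47 ± 0.08 on the log2 scale (SE; adjusted p = 8.15e-08, 9.89e-05, 1.3e-06, 4.84e-05 and 0.000151, edgeR). SLC43A3 thus stood above control at both times and lower at 48 h than at 24 h in deprived cells.

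For the wider set of carriers, 24 further genes were listed: the heavy chains, peptide carriers, mitochondrial and vesicular amino acid carriers and lysosomal exporters. Of these 16 were tested, 7 rose and 2 fell at 24 h, and 10 rose and 3 fell at 48 h, with medians of 0.25 and 0.51 on the log2 scale. That is 56.2% and 81.2% of the tested genes of the list, where 55.6% and 68.3% of all genes were called, so the share at 24 h was near the background. Among the called genes, after SLC3A2 at 2.21 and 3.06, the largest increases were the mitochondrial ornithine carrier SLC25A15 at 24 h (0.62) and the lysosomal cystine exporter CTNS (1.09) and the lysosomal cationic amino acid exporter SLC66A1 (1.08) at 48 h. CLTRN, at 1.66 at 24 h, was not called (adjusted p = 0.0516, edgeR). The aromatic amino acid carrier SLC16A10 fell most at both times, by 1.02 and 1.99 on the log2 scale. The mitochondrial aspartate-glutamate carrier SLC25A12 fell by 0.25 at 24 h and rose by 0.29 at 48 h (adjusted p = 0.0073 and 0.0022, edgeR). The vesicular glutamate carrier SLC17A7 fell by 1.21 at 48 h. SLC7A11, left out by the rule, had log2 fold changes of 3.16 and 4.35.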

How the data were processed

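Estimated counts of each gene, not normalized by the authors, fill 12 columns of the deposited table, 1 for each sample. The authors' gene length, a further deposited column, was used for CPM per kilobase. The submitters' processing notes name fastp, HISAT, RSEM and GRCh38; versions, strandedness and annotation release are not given in the sources used here. A TPM table is mentioned in the labels, but column totals differ between samples, which TPM totals would not. Estimates of this kind split reads between near-identical copies, such as SLC7A5 and SLC7A5P2 (at most 11.1 counts) or SLC6A8 and SLC6A10P (at most 26).

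The 316 rows without a gene name, 0.748% to 1.65% of counts, were left out. Counts were rounded, and genes passing filterByExpr (minimum count 10, minimum total 15) were kept, 16994 in all. One fit of 4 group means with edgeR 4.0.16 (R 4.3.3; TMM, glmQLFit, glmQLFTest) gave 5 contrasts, with Benjamini-Hochberg adjustment over all genes, threshold 0.05 and a biological coefficient of variation of 6.4%. A standard error is the log2 fold change divided by the root of F. The steps were also run on simulated counts with far fewer changed genes than were called here, so that run does not check changes this broad. CPM use TMM-scaled library sizes. Replicates differed by more than sampling noise (chi-square per degree of freedom 3 to 8.13).

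Members, role lists and the list of other carriers were chosen with earlier results of these data known. Every member with a group mean of at least 5 CPM was named, and of the others those called in any contrast. Coordinates are those of GENCODE 29 on GRCh38, and promoter windows are RefSeq's. Alternatives were RLE, upper-quartile and library-total scaling, DESeq2 1.42.0, no filter, a filter at a mean of 5 CPM, fits of the compared groups alone, a block for the replicate number, and leaving out each of the 12 samples.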

Additional observations from a re-analysis of the deposited data

Results flagged for a closer look

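The effect of deprivation differed between 24 h and 48 h, by the interaction contrast of the edgeR fit, in 17 members, and 35.6% of all genes tested did the same. Each value is the log2 fold change at 48 h minus that at 24 h. Among members that rose, it was 1.1 for SLC1A4, 0.99 for SLC6A9, 0.76 for SLC7A5, 0.62 for SLC38A5, 0.43 for SLC38A1, 0.31 for SLC7A1 and 0.25 for SLC1A5. Among members that rose at 48 h alone, it was 1.22 for SLC38A7, 0.75 for SLC7A6 and 0.70 for SLC38A9. It was 0.55 for SLC36A1, which fell at 24 h alone.

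Among members that fell at both times, the difference was -1.12 for SLC38A3, -0.89 for SLC6A16, -0.74 for SLC7A2, -0.65 for SLC6A6 and -0.49 for SLC7A8. The fitted value of SLC1A2, -3.37, rests on 1 count in deprived cells at 48 h and on a gene that passed the filter through its control groups alone, so it gives no size of the difference. Its call was lost without the first deprived sample at 24 h, or without the first or the second at 48 h, with adjusted p between 0.0564 and 0.0611. The call of SLC1A5 was lost in 6 of the 12 fits that left out a sample, and that of SLC7A8 in 2 of them.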

How the results depend on the processing

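Over the alternatives other than leaving out a sample, 17 to 22 members were called at 24 h, 19 to 25 at 48 h, 16 to 18 by the interaction, 18 to 21 between deprived times and 7 to 11 between control times. Leaving out each sample gave 19 to 21, 24 to 25, 15 to 18, 17 to 20 and 6 to 9. The lowest counts at 24 h and 48 h came from the filter of 5 CPM, which tests 24 members. It called 17 and 19 of them, beside 7947 and 9209 of 11761 genes. Of 118 gene results, 98 kept their direction and their side of the threshold under every alternative run. SLC38A10 at 24 h turned to -0.003 on library totals. SLC38A9 at 24 h turned to -0.008 on library totals, -0.004 on upper-quartile scaling and -0.041 without the third control, the lowest of -0.041 to 0.128 over the fits that left out a sample. None of these was called in any setting. On library totals the summed level at 24 h was 857 CPM per kb in controls and 1396 CPM per kb in deprived cells. The cause of these changes was not tested.

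With the replicate number as a block, 21, 25, 18, 21 and 10 members were called in the 5 contrasts, beside 9631, 11734, 6329, 7473 and 4306 of all 16994 genes. Without the block they were 21, 25, 17, 20 and 8 members, beside 9451, 11615, 6048, 7220 and 3911 genes. Deviations of same-numbered control and deprived samples of the same time correlated at -0.01 to 0.126, over 0.1 in 1 of 6 pairs. Those of same-numbered samples of 1 condition between times correlated at -0.041 to 0.052. The labels do not say whether the numbers pair the samples, and low correlations cannot decide it. SLC38A3 between deprived times was lost under the block, at -0.59 with an adjusted p of 0.0513. It was also lost with DESeq2 (adjusted p = 0.0782), on RLE, upper-quartile and library-total scaling, without a filter and with the compared groups alone. Of the 12 fits that left out a sample, 10 lost it. None of the 25 members left out by the filter passed 10 counts in any sample, which limits what this depth shows of them.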
